A study of Mus musculus with 18 samples.

Results

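The genes described here are 8 factors of the sympathetic lineage that neuroblastoma cells share: the transcription factors *Phox2a*, *Hand2*, *Gata2*, *Gata3* and *Isl1*, the enzymes *Th* and *Dbh*, and the receptor *Ret*. They were found by symbol in the deposited locus table, with joined symbols split at commas. The 8 genes were held by 9 loci of 168136 in all, of which 52179 carry a symbol. All 9 passed the filter on low counts, a mean of 10 or more normalized counts across the 18 samples, and so were among the 15579 loci tested. Neuro2A, the cell line used throughout, is a mouse neuroblastoma line labelled as wild type. The study collected RNA bound to biotin-tagged *miR-92b* on streptavidin beads to find partners of this miRNA in the nucleus. The 18 samples formed 6 groups of 3, nuclear and whole cell lysates of control cells (untransfected, as the study describes its control cultures), of cells given a biotinylated scrambled sequence (Scr) and of cells given biotinylated *miR-92b*. The mimics were used at 25 nM, and the transfected cells were lysed after 48 h. The labels say no more of the control samples, and the sources do not state outright that control lysates went through the same beads. The labels do not say whether the 3 samples of a group came from separate cultures, so the p-values measure the spread between these samples.

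Sympathetic neurons and chromaffin cells arise from the neural crest, and a set of transcription factors that bind one another's genes installs their identity. PHOX2A, HAND2, GATA2, GATA3 and ISL1 belong to this set, which neuroblastoma cells keep in their adrenergic state. TH and DBH are the marker enzymes of noradrenaline synthesis, and RET is the receptor tyrosine kinase through which glial cell line-derived neurotrophic factor acts on these neurons.

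*miR-92b-3p* pairs with a target mRNA through its seed, so its sequence and the matching sites of the members are shown first. The mature sequence (RefSeq, GRCm38.p6, chr3:89227126-89227147, minus strand, 22 nucleotides) has the seed, bases 2 to 8, in capitals.
mmu-miR-92b-3p: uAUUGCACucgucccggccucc
The 7 bases that pair with this seed, GTGCAAT, were searched on the sense strand of annotated 3′ UTRs (GENCODE M21, GRCm38). Of the 8 members, 2 (25%) held a match, against 1624 of 21173 genes with an annotated 3′ UTR (7.67%). The match is in capitals in each site below, both of them on the plus strand.
Gata2: tgagtcaaccaaGTGCAATatcggtgtcca
Hand2: cggtttatttatGTGCAATttccttcccct
The *Gata2* match, at chr6:88206782-88206788, starts at position 1288 of a UTR of 1538 nucleotides. It is followed by an A, which makes it an 8-base match (GTGCAATA), found in 1 member (12.5%) and in 543 genes (2.56%). The *Hand2* match, at chr8:57323978-57323984, starts at position 118 of 773 nucleotides. A match describes these letters only.

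In the annotation (GENCODE M21, GRCm38), *Phox2a* lies at chr7:101818313-101822726, *Hand2* at chr8:57320983-57324633, *Gata2* at chr6:88193891-88207032, *Gata3* at chr2:9857078-9890034, *Isl1* at chr13:116298281-116309689, *Th* at chr7:142892752-142931128, *Dbh* at chr2:27165233-27183200 and *Ret* at chr6:118151745-118197718. All 8 are protein-coding. Their longest transcripts run from 1609 nucleotides (*Phox2a*, 3 exons) to 5456 (*Ret*, 20 exons). *Dbh* (XLOC_082477), *Isl1* (XLOC_043449), *Phox2a* (XLOC_134567), *Hand2* (XLOC_143824) and *Ret* (XLOC_130123) each had a locus with their symbol alone. The other 3 genes did not. *Gata3* was counted in a locus joined with *9230102O04Rik* (XLOC_088084), which lies on the same strand inside the *Gata3* span, and *Th* in a locus joined with *Gm44612* (XLOC_141686).

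*Gata2* was listed at 2 loci with the same coordinates, chr6:88157325-88208333. One carries the symbol *Gata2* alone (XLOC_124582), and the other the symbols *Gata2* and *Gm44246* (XLOC_128597). The tables list no strand. Among the 20 nearest numbered loci of single genes, 19 lay on the plus strand, that of *Gata2*, for the first locus and 19 on the minus strand for the second. The library kit keeps the strand, but whether counting used it is not stated, so reads of the 2 loci cannot be told apart with certainty. The same holds for *Hand2*, whose span is overlapped by the minus-strand *Hand2os1*. It also holds for *Gata3*, on the minus strand, whose span contains the plus-strand *4930412O13Rik*. The locus of *4930412O13Rik* had 28.9 to 204 normalized counts per sample. The *Phox2a* locus is listed at chr7:101818313-101857194, coordinates that the loci of *Inppl1*, *Gm10602*, *Gm45319* and *Folr2* share. *Inppl1* had 206 to 769 normalized counts per sample. Of the 20 nearest numbered loci 10 lay on each strand, so reads of *Phox2a* cannot be told apart with certainty either.

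The sequencing depth ran from 3752991 to 22920037 reads on loci that carry a symbol. In a principal component analysis 3 samples stood apart, whole cell *miR-92b* sample 3 on the first component and nuclear Scr samples 2 and 3 on the second. Results averaged over the 3 treatments that change without them are given with that value. The fractions carried their markers: the nuclear RNAs *Malat1* and *Neat1* were higher in nuclear samples, 2.11-fold and 2.08-fold, while all 5 cytoplasmic mRNAs fixed as markers (*Gapdh*, *Actb*, *Eef1a1*, *Rplp0* and *Tubb5*) were lower, by 4.45-fold to 12.7-fold (limma, Benjamini-Hochberg adjusted p at most 1.82e-05). Of the other nuclear markers, *Meg3* did not pass (log2 difference 1.65 ± 0.86 SE, adjusted p = 0.145) and *Miat* lay below the filter. Normalized counts are relative within a library, so a nuclear difference is a difference in share of the sequenced RNA, and fewer cells or less RNA per cell cannot be told apart.

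All 9 loci were read in every sample, at levels that differed widely. For *Gata3* and *Th* these are reads of a joined locus, not of the gene alone. Levels between genes are compared by FPKM, fragments per kilobase of transcript scaled to the mapped fragments of a library, which is per length. The length that FPKM divides by can exceed that of the annotated transcript, as given below. Over the 18 samples *Ret* was highest with 72.0 ± 32.0 FPKM (SD, n = 18), at percentile 97.1 of the tested loci. *Isl1*, a LIM homeodomain factor, followed with 45.3 ± 10.5 FPKM (percentile 94.4). *Hand2*, a basic helix-loop-helix factor, and *Phox2a*, a paired-like homeodomain factor, lay at 28.1 ± 12.8 and 26.3 ± 14.2 FPKM. The zinc finger factor *Gata2* had 24.7 ± 7.63 FPKM at its own locus and 17.0 ± 5.33 FPKM at the locus shared with *Gm44246*, and the locus of its relative *Gata3* had 10.9 ± 5.52 FPKM.

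The 2 enzyme loci were lowest. The locus of *Th*, which encodes the rate-limiting enzyme of catecholamine synthesis, had 7.89 ± 4.82 FPKM (percentile 53.0). *Dbh*, whose enzyme turns dopamine into noradrenaline, had 2.30 ± 0.998 FPKM (percentile 18.2). *Dbh* rested on 19 to 273 reads per sample and the *Th* locus on 26 to 491, against 4653 to 32833 for *Ret*, so the enzymes carry the largest errors.

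**Figure D1:**
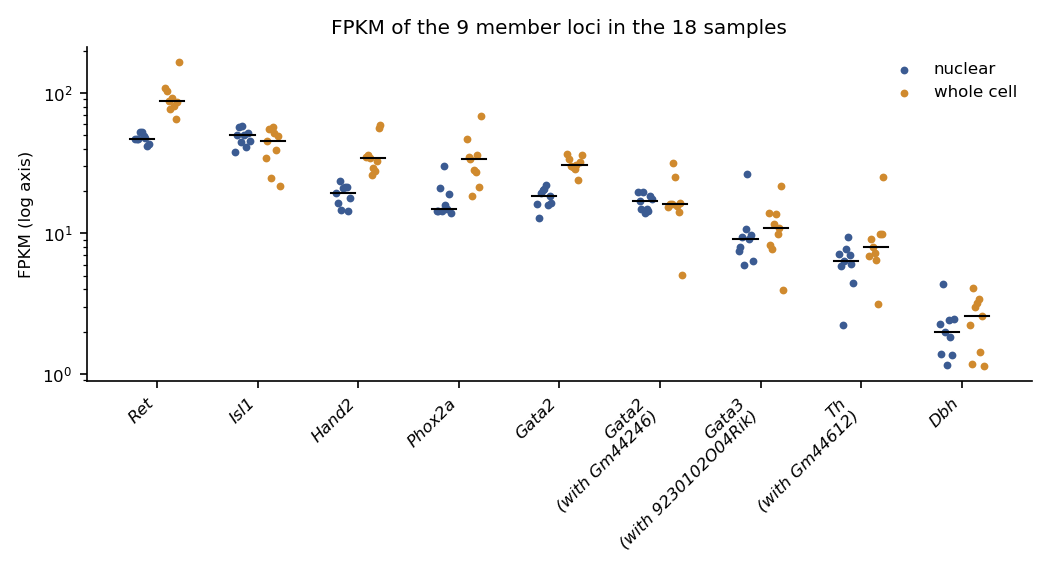
FPKM (log axis) of the 9 member loci in each of the 18 samples, nuclear and whole cell samples in separate colours, in the order of their mean level. *Ret* and *Isl1* lead and *Dbh* is lowest, while most neighbours in the order share part of their range.

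The order was clear at few steps. In the whole cell samples *Ret* (96.2 ± 29.1 FPKM, SD, n = 9) did not overlap with the next gene, *Isl1* (42.0 ± 12.8), and every later neighbour overlapped with the one before it. In the nuclear samples *Isl1* (48.6 ± 6.87 FPKM) and *Ret* (47.8 ± 3.69) lay within each other's range. Their mean normalized counts there were 848 and 7766, so this order depends on the length that FPKM divides by. *Ret* there stood 2.53-fold above the next gene, *Hand2* (18.9 ± 3.27 FPKM), without overlap. The following 4 loci, *Hand2*, *Gata2*, *Phox2a* and *Gata2,Gm44246*, had nuclear means from 18.9 down to 16.7 FPKM and were not separated.

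The first question was which members differ between the nuclear and the whole cell samples. By normalized count, averaged over the 3 treatments, *Isl1* and the *Gata2,Gm44246* locus were higher in nuclear samples and the *Gata2* locus was lower, while the other 6 loci did not pass the test. These 3 of 9 loci stand beside 31.0% of all tested loci (15.3% higher and 15.8% lower), a share near that of the members. Values are log2 differences of normalized count + 1 with their SE from 1 limma model of the 6 groups, adjusted over all 15579 loci with a threshold of 0.05. The median of all tested loci was itself shifted by 0.14 towards the nuclear samples.

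*Gata2*, with GATA3 a zinc finger factor of sympathetic differentiation, had normalized counts of 631, 399 and 590 in nuclear control samples 1 to 3, 494, 562 and 589 with Scr and 505, 595 and 463 with *miR-92b*. In whole cell samples it had 778, 731 and 763 in the controls, 675, 683 and 855 with Scr and 626, 744 and 805 with *miR-92b*. Of the 9 nuclear samples, 8 lay below every whole cell sample, and the only overlap was between nuclear control 1 and whole cell *miR-92b* 1. The log2 difference was -0.47 ± 0.12 (1.39-fold lower, limma adjusted p = 0.00363), or -0.61 relative to the median locus. The two-sided exact permutation test of 9 nuclear against 9 whole cell samples, run for each locus without adjustment, gave p = 8.23e-05 for *Gata2*.

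The other locus with the *Gata2* symbol moved the other way. Its numbered neighbours lay mostly on the strand opposite to *Gata2*, so its reads cannot be taken as *Gata2* RNA with certainty. *Gata2,Gm44246* had 1913, 1905 and 1539 in nuclear controls, 1872, 1512 and 1754 with Scr and 1524, 1792 and 2045 with *miR-92b*. In whole cell samples the counts were 1134, 1311 and 1163 in the controls, 1730, 1494 and 1727 with Scr and 1308, 1672 and 493 with *miR-92b*. The groups overlapped: 6 nuclear samples lay above every whole cell sample, and the whole cell Scr samples were as high as several nuclear ones. The log2 difference was 0.47 ± 0.16 (1.38-fold higher, limma adjusted p = 0.0278, exact permutation p = 0.00551), and it passed the threshold in 24 of 31 alternative settings.

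The count of *Gata2,Gm44246* divided by that of *Gata2* ran from 2.61 to 4.77 in nuclear samples (median 3.02) and from 0.612 to 2.56 in whole cell samples (median 2.02). All 9 nuclear ratios lay above every whole cell ratio, as a description with no test, since the pair was formed after both loci had been seen to move in opposite directions. The lowest ratio was that of whole cell *miR-92b* sample 3, and without it the whole cell ratios began at 1.46.

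*Isl1*, which acts in the early development of sympathetic neurons, had normalized counts of 747, 735 and 924 in nuclear controls, 698, 1006 and 1049 with Scr and 744, 804 and 922 with *miR-92b*. The whole cell counts were 674, 628 and 762 in the controls, 742, 742 and 754 with Scr and 545, 483 and 372 with *miR-92b*. The whole cell *miR-92b* samples were the lowest 3 of the 18, an order that was not counted over all tested loci. The other whole cell samples overlapped with the lower nuclear ones. The log2 difference was 0.44 ± 0.12 (1.36-fold higher in nuclear samples, limma adjusted p = 0.00529, exact permutation p = 0.0035). Without the 3 samples that stood apart it was 0.27 and did not pass (adjusted p = 0.0711).

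Of the other transcription factors, *Phox2a*, which switches on the *Dbh* gene, had 497 to 729 normalized counts in nuclear samples (median 593) and 416 to 783 in whole cell samples (median 535). Its log2 difference was 0.06 ± 0.13, with an interval of 2 SE from -0.20 to 0.31. *Hand2*, a factor of noradrenergic gene expression, had 671 to 1259 (median 980) and 860 to 1612 (median 1142), with a log2 difference of -0.23 ± 0.12 (limma adjusted p = 0.151). The *Gata3* locus had 131 to 267 (median 168) and 71.2 to 213 (median 139), with a difference of 0.34 ± 0.24 (adjusted p = 0.303). The ranges of all 3 overlapped between the compartments.

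*Ret* had 8143, 8144 and 7361 normalized counts in nuclear controls, 8675, 6803 and 6917 with Scr and 8680, 7756 and 7413 with *miR-92b*. Its whole cell counts were 7574, 8362 and 7915 in the controls, 7516, 8080 and 8599 with Scr and 6316, 9015 and 8142 with *miR-92b*. The 2 sets of samples lay in 1 range. The log2 difference was -0.03 ± 0.10 with an interval from -0.23 to 0.17, the narrowest of the members.

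The enzymes were too variable for a difference of this size to be seen. The *Th* locus ran from 41.1 to 218 normalized counts in nuclear samples (median 141) and from 58.4 to 279 in whole cell samples (median 147). Its log2 difference was -0.11 with an interval from -0.71 to 0.50. *Dbh* ran from 21.9 to 83.9 (median 41.1) and from 23.6 to 94.3 (median 55.7), with a difference of -0.19 and an interval from -1.08 to 0.69. At this depth a difference of 1.36-fold, as for *Isl1*, was not detectable in either.

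**Figure D2:**
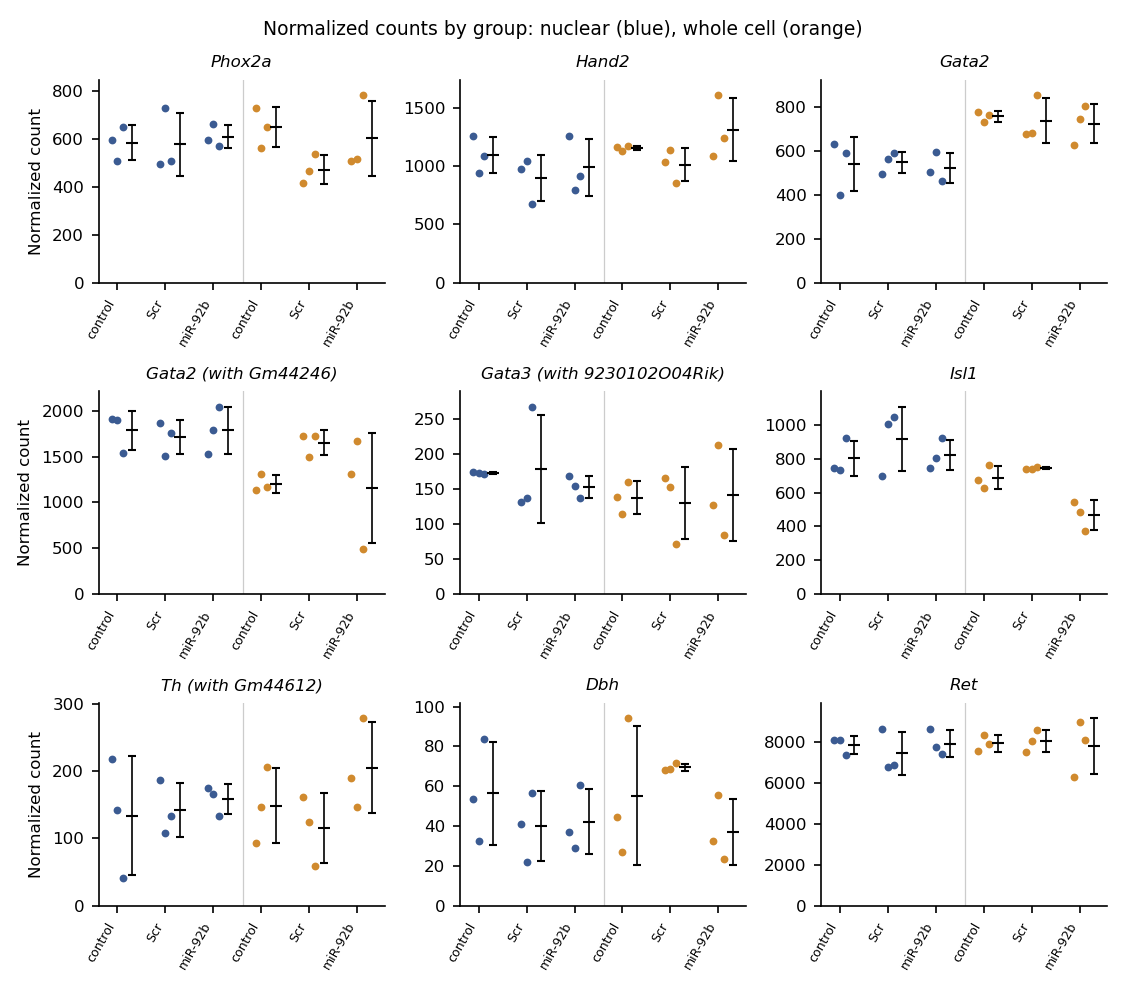
Normalized counts of the 9 member loci by group, each axis from 0, with nuclear samples in blue and whole cell samples in orange, 1 point per sample and a black bar for the mean ± SD of 3 samples. *Gata2* sits lower and *Gata2,Gm44246* and *Isl1* sit higher on the nuclear side, while *Ret* stays between 6316 and 9015 in all 18 samples.

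The second question was whether the balance holds within each treatment, with 3 samples against 3. In the controls none of the 9 loci passed limma, against 9.85% of all tested loci, and 1 had an unadjusted p under 0.05 (22.7% of all tested loci). With Scr again none passed, against 5.17%, and 1 had an unadjusted p under 0.05 (22.1% of all). With *miR-92b* 1 locus passed, against 13.3%, and 3 had an unadjusted p under 0.05 (28.6% of all). The locus that passed was *Isl1*, with a log2 difference of 0.83 ± 0.20 (limma adjusted p = 0.00731), against 0.22 ± 0.20 in the controls and 0.28 ± 0.20 with Scr. For *Gata2* the differences were -0.51 in the controls, -0.42 with Scr and -0.48 with *miR-92b* (SE 0.20 for each), and none of these passed. *Gata2,Gm44246* had 0.57 in the controls, 0.05 with Scr and 0.79 with *miR-92b* (SE 0.28 for each, limma adjusted p from 0.0593 to 0.944).

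A balance that passes in 1 treatment is not thereby different from the others, so the differences were tested themselves. For *Isl1* the balance with *miR-92b* exceeded that with Scr by 0.56 ± 0.28 (limma adjusted p = 0.699). For *Gata2,Gm44246* the same difference was 0.74 ± 0.39 (adjusted p = 0.701). No member locus passed in any of the 3 comparisons of balance. Of all tested loci 0.00642% passed for *miR-92b* against Scr and 0% in the other 2. At an unadjusted p under 0.05, no member lay in *miR-92b* against Scr (7.21% of all tested loci), none in Scr against control (5.28%) and 1 in *miR-92b* against control (1.86%).

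The third question was that of the study's own design, whether *miR-92b* collected more or less of a gene than Scr. No member locus passed limma in nuclear samples (0% of all tested loci) or in whole cell samples (0.00642%), and edgeR and DESeq2 called none either. With so few loci called anywhere, the absence of a member says little of the members. The paper, using Cuffdiff, reports differentially expressed genes against the scrambled control in both lysates. With unadjusted p under 0.05 there were 0 members in nuclear samples (4.41% of all tested loci) and 2 in whole cell samples (9.72%). These 2 were *Isl1*, with a log2 difference of -0.69 ± 0.20 (limma adjusted p = 0.311), and *Gata2,Gm44246*, with -0.68 ± 0.28 (adjusted p = 0.446). All 3 whole cell *miR-92b* counts of *Isl1* lay below all 3 Scr and all 3 control counts. How many of all tested loci separate in this way was not counted, so it is not shown to be particular to *Isl1*. For *Gata2,Gm44246* the low value was that of sample 3 alone, 493, beside 1308 and 1672.

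The members with a seed match gave no difference past the threshold. *Gata2*, whose UTR carries the 8-base match shown above, had a log2 difference of -0.08 ± 0.20 between nuclear *miR-92b* and Scr samples and of -0.02 ± 0.20 between whole cell samples, with an interval from -0.43 to 0.38 in the latter. *Hand2*, with the 7-base match, differed by 0.14 ± 0.21 and by 0.36 ± 0.21, with an interval from -0.06 to 0.78 in whole cell samples. *Ret*, with no match, differed by 0.10 ± 0.17 and -0.06 ± 0.17. In nuclear samples the 9 differences lay between -0.15 and 0.17.

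The comparisons with control samples, which share those samples with each other, gave 0 called members too. Unadjusted p values under 0.05 were found for 1 member in Scr against control (5.09% of all tested loci) and 1 in *miR-92b* against control (4.69%), both in whole cell samples, and for none in nuclear samples (5.88% and 0.321%). Of all tested loci the share called at the adjusted threshold was 0.00642% for *miR-92b* against control in whole cell samples and 0% for the others. The members were read in the control samples as well: *Ret* had 7361 to 8362 normalized counts over the 6 control samples, against 6316 to 9015 over the 6 *miR-92b* samples.

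The FPKM table gave a different picture from the counts. By FPKM, 4 member loci were lower in nuclear samples and none was higher, against 25.1% of all tested loci (8.92% higher and 16.1% lower). These 4 were *Ret*, *Hand2*, *Phox2a* and *Gata2*, and only *Gata2* was called by both measures. Differences here are on log2(FPKM + 0.1), and the median of all tested loci was 0.02.

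*Ret* had 42.2 to 53.0 FPKM in nuclear samples (median 47.2) and 65.1 to 165 in whole cell samples (median 88.0), with no overlap. Its log2 FPKM difference was -0.96 ± 0.14 (1.95-fold lower, limma adjusted p = 0.000162). *Hand2* had 14.4 to 23.4 FPKM (median 19.3) against 25.8 to 59.5 (median 34.6), again with no overlap, and differed by -0.94 ± 0.15 (adjusted p = 0.000208). *Gata2* had 12.9 to 21.9 FPKM (median 18.4) against 23.9 to 36.4 (median 30.8), also without overlap, and differed by -0.80 ± 0.12 (limma adjusted p = 0.000136). How many of all tested loci lack overlap by FPKM was not counted, so it is not shown to be particular to these genes.

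*Phox2a* had 13.9 to 30.2 FPKM in nuclear samples (median 14.9) and 18.5 to 68.2 in whole cell samples (median 34.1). Its ranges overlapped, because nuclear Scr sample 2 and 2 other nuclear samples lay above the lowest whole cell one. The log2 FPKM difference was -0.93 ± 0.22 (limma adjusted p = 0.00479), opposite in sign to its small difference by count. The remaining 5 loci did not pass, with log2 FPKM differences of 0.27 for *Isl1*, 0.08 for *Gata2,Gm44246*, -0.15 for the *Gata3* locus, -0.49 for the *Th* locus and -0.18 for *Dbh*. Within treatments, 2 loci passed by FPKM in the controls (7.32% of all tested loci), none with Scr (4.11%) and 4 with *miR-92b* (9.07%). With Scr the lowest adjusted p was 0.147, that of *Ret*, and 3 loci had an unadjusted p under 0.05 (19.8% of all tested loci).

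Within a sample, the count and the FPKM of a locus are tied by the scaling of the library and by the length by which a count is divided. That length was taken as the count per FPKM, scaled in each sample to loci of genes with a single annotated transcript, and is called the implied length. It was chosen after the values were seen. It was tested on the 9952 loci that passed the filter and had a count and an FPKM above 0 in all 18 samples. By this measure 4 member loci were longer in nuclear samples and none was shorter, against 16.4% of the tested loci (13.3% longer and 3.16% shorter). They were the 4 loci that FPKM called, which follows in part from how the measure is built, since a locus with a lower FPKM and a like count must have a longer implied length.

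*Phox2a* had implied lengths of 3217 to 5260 nucleotides in nuclear samples and 1544 to 3186 in whole cell samples, with no overlap, where its longest annotated transcript has 1609. The log2 difference was 0.94 ± 0.13 (1.92-fold longer, limma adjusted p = 0.000278). *Ret* had 17156 to 24619 nucleotides against 6618 to 15055, also without overlap, where its longest annotated transcript has 5456 and its gene spans 45974. Its log2 difference was 0.88 ± 0.12 (limma adjusted p = 0.000367). How many of all tested loci lack overlap by implied length was not counted either.

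*Hand2* had 4140 to 8757 nucleotides in nuclear samples against 2800 to 5466, with an annotated transcript of 2351 and a log2 difference of 0.66 ± 0.13 (limma adjusted p = 0.00482). Only nuclear Scr sample 3 fell into the whole cell range. *Gata2* differed least of the 4, by 0.28 ± 0.07 (adjusted p = 0.0154), and without the 3 samples that stood apart it was 0.22 and did not pass (adjusted p = 0.114). *Isl1* and *Dbh*, with 0.12 ± 0.16 and -0.06 ± 0.06, did not pass. Neither did the *Gata3* and *Th* loci, at 0.43 and 0.34. Without the 3 samples that stood apart, which leaves nuclear Scr with 1 sample, the *Gata3* locus rose to 0.75. *Gata2,Gm44246* did not pass either, with medians of 13804 nucleotides in nuclear and 10977 in whole cell samples. The longest annotated *Gata2* transcript has 3571 nucleotides and the gene spans 13142. Within treatments 3 members were longer in nuclear control samples (3.26% of loci were called), none with Scr (1.51%, with 3 members and 13.4% of loci at an unadjusted p under 0.05) and 3 with *miR-92b* (4.66%).

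**Figure D3:**
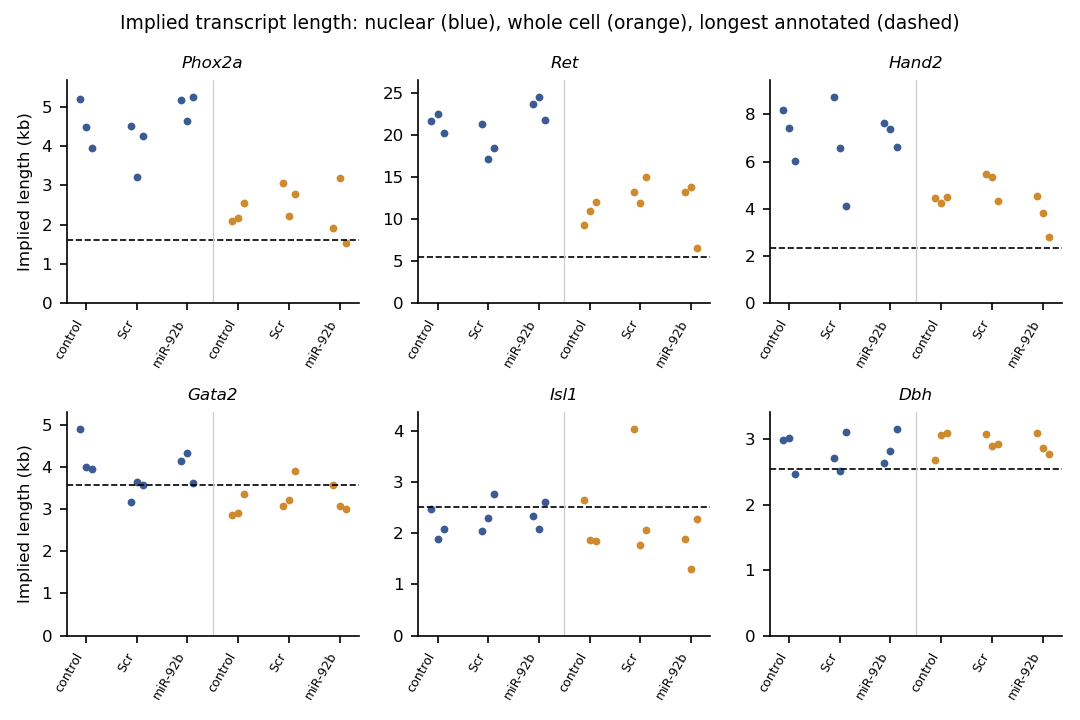
Implied transcript length in kilobases (count per FPKM, scaled per sample) of 6 members in the 6 groups, nuclear in blue and whole cell in orange, 1 point per sample, with the longest annotated transcript as a dashed line. For *Phox2a* and *Ret* every nuclear sample lies above every whole cell sample, and for *Dbh* the compartments share 1 range.

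**Figure D4:**
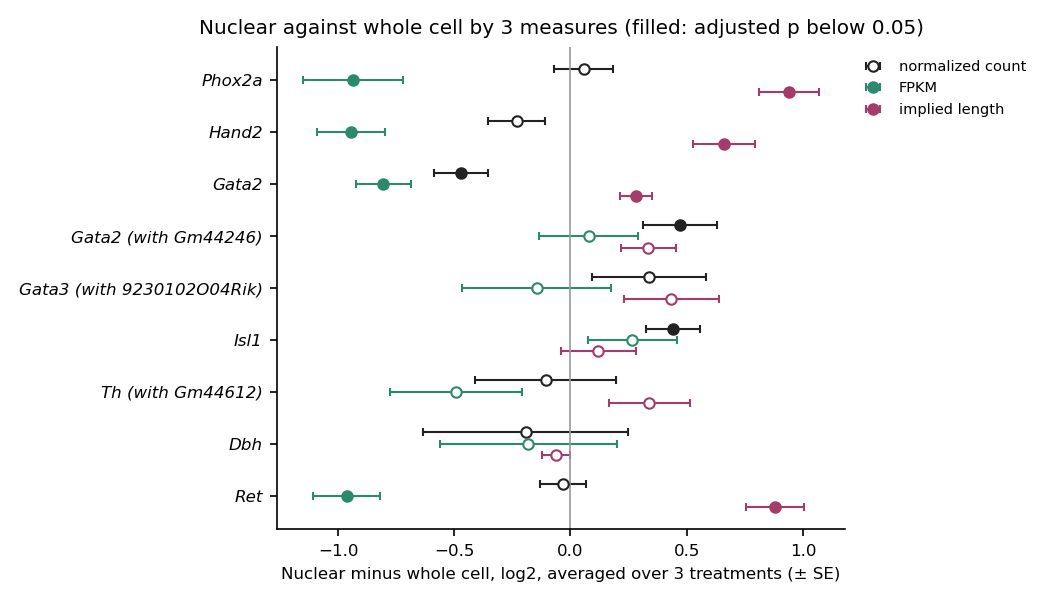
Nuclear minus whole cell difference (log2, averaged over the 3 treatments, bars ± SE) of each member locus by normalized count, by FPKM and by implied length, filled where the limma adjusted p was below 0.05. For *Ret* and *Phox2a* the count difference lies at about 0, the FPKM difference is negative and the length difference is positive.

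The genes around the members were described from lists, each by its own counts in the averaged comparison of normalized counts, where 15.3% of all tested loci were higher in nuclear samples and 15.8% lower. Of 17 tested loci of other noradrenergic transcription factors, 5 were higher in nuclear samples and 4 lower, with a median of 0.00 beside 0.14 for all loci. The highest 4 by count among those that passed were *Satb1* (log2 difference 0.34 ± 0.09), *Klf7* (0.46 ± 0.13), *Tbx2* (0.32 ± 0.12) and *Meis1* (0.94 ± 0.16). All of these were among the higher ones. The 4 lower ones were *Lmo1* (-1.097 ± 0.242), *Insm1* (-1.087 ± 0.195), *Tcf3* (-0.822 ± 0.192) and *Lmo4* (-0.997 ± 0.276).

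Of 12 tested loci for catecholamine synthesis, storage and breakdown, none was higher in nuclear samples and 5 were lower, with a median of -0.69. Examples are *Scg2*, a secretory granule protein (-1.16 ± 0.21), *Cyb561*, which supplies electrons to DBH in granules (-1.25 ± 0.27), and *Qdpr*, which recycles the cofactor of TH (-1.52 ± 0.28). The vesicle transporter *Slc18a2* and the cofactor enzyme *Gch1* did not pass, at 0.16 ± 0.13 and 0.22 ± 0.12. *Ddc*, which follows TH in the pathway, lay below the filter, and the noradrenaline transporter *Slc6a2* and *Pnmt*, which makes adrenaline, were listed at 0. Of 5 tested cholinergic loci none passed, with a median of -0.23.

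Around *Ret*, none of 11 tested loci of its ligands, co-receptors and adaptors was higher in nuclear samples and 4 were lower, with a median of -0.37. The 4 were signalling adaptors or, in *Cbl*, a ubiquitin ligase: *Cbl* (-0.45 ± 0.11), *Shc1* (-0.77 ± 0.13), *Dok4* (-1.32 ± 0.33) and *Grb2* (-0.92 ± 0.34). The co-receptor *Gfra1*, through which glial cell line-derived neurotrophic factor binds RET, was low, with 18.5 normalized counts in nuclear and 28.3 in whole cell samples, and *Gfra3* was listed at 0. Of 10 tested loci of other receptors, 3 were higher and 3 lower. The higher ones were *Alk*, a receptor tyrosine kinase mutated in some neuroblastomas (0.92 ± 0.13), *Igf1r* (0.42 ± 0.12) and *Ntrk3* (0.27 ± 0.09). The lower ones were *Bmpr2* (-0.62 ± 0.17), *Ngfr* (-0.99 ± 0.20) and *Bmpr1a* (-1.28 ± 0.14).

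Markers of other cell states were read alongside. Of 5 tested mesenchymal neuroblastoma markers 1 was higher in nuclear samples and 2 were lower: *Notch2* (0.57 ± 0.20), *Vim* (-2.36 ± 0.16) and *Wwtr1* (-0.87 ± 0.23). *Twist1* and *Cd44* were listed at 0, and *Prrx1*, *Yap1* and *Snai2* had mean normalized counts of 1.05 or less, while *Vim* had 2155, *Fn1* 1163 and *Fosl2* 737. Of 4 tested Schwann cell markers none passed, *Foxd3* was listed at 0, *Sox10* lay below the filter and *Pmp22* had a mean normalized count of 1126. None of the listed loci passed in a comparison of treatments.

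Over the 18 samples, the loci whose log2 counts followed each member most closely are given by Pearson's r (n = 18) as a description, since all points share the libraries and the compartments. For *Gata2* they were *Igsf8* (r = 0.92) and *Hist1h2bk* (0.91), and for *Gata2,Gm44246* they were *Gm22353* (0.96) and *Usp48* (0.95). For *Isl1* they were *Gm30948* (0.93) and *Gm37420* (0.90), for *Phox2a* *Atp6v0b* (0.84) and *Crim1* (0.82), and for *Hand2* *Cndp2* (0.79) and *Wdr46* (0.78). For the *Gata3* locus they were *Slurp1* (0.88) and *Fra10ac1* (0.86), for the *Th* locus *Clstn3* (0.81) and *Gm15287* (0.80), for *Dbh* *Thtpa* (0.82) and *Hmbox1* (0.79), and for *Ret* *Gm15777* (0.82) and *Ifna13* (0.79). Among the members themselves the highest r was that of *Isl1* with *Gata2,Gm44246* (0.67) and the lowest that of *Hand2* with *Isl1* (-0.61).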

How the data were processed

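RNA of Neuro2A lysates was measured in 18 samples of 6 groups, assigned from the labels. The Scr and *miR-92b* samples were streptavidin pulldowns, which is not stated outright of the controls. The study's methods name oligo-dT selection and a directional kit, while the design text speaks of total RNA. The authors base-called with bcl2fastq 2.17, trimmed with Trimmomatic 0.30, aligned with TopHat2 (GRCm38, mm10), built loci in Cufflinks and ran Cuffdiff between groups. The sources used here give no version of TopHat2 or Cufflinks, no annotation release and no strand setting of counting. The deposited normalized counts are a signal, reads per locus divided by 1 size factor per sample, and the deposited FPKM values are per transcript length and mapped fragments. The authors' comparison tables hold log2 fold changes and p-values and were not used.

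Whole reads were recovered for 99.9% of 635205 normalized counts above 0 (within 0.02 reads), and limma rather than a count model was the main test because the deposited values are normalized. limma 3.58.1 (R 4.3.3) with a variance trend was run on log2(normalized count + 1) in 1 model of 6 groups, two-sided, with Benjamini-Hochberg adjustment. FPKM were tested on log2(FPKM + 0.1). Loci without a symbol (4.51% to 15.3% of reads) were left out. Exact permutation tests used all 48620 splits. The count per FPKM was scaled per sample to 872 to 2115 loci of single-transcript genes. Alternatives were pseudocounts of 0.5 and 8, other filters, FPKM, rescaling to the same median, edgeR 4.0.16 and DESeq2 1.42.0 on recovered reads, the compared groups alone, sample weights, a replicate block, and each sample left out. Leaving out 3 samples together was added after the data were seen. On simulated counts of 15579 loci, the averaged comparison recovered 184 of 200 changed loci (log2 fold 2) with 7 false calls. The member differences by count, from -0.47 to 0.47, are smaller, so this does not measure the power to detect them. All members are named. Of each other list the 4 highest by mean count among called loci are named, and for each member the 2 loci of highest r. Some loci that this rule covers are not reported here. Other named genes were chosen after their values were seen. The members and lists were chosen with earlier results of these data known.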

Additional observations from a re-analysis of the deposited data

Results flagged for a closer look

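In each compartment the 9 samples of a locus were examined for a sample far from the rest, by count and by FPKM, which gave 36 groups of 9. A sample was singled out where its gap to the nearest other sample, divided by the range, exceeded Dixon's 95% critical value for 9 samples. This happened in 8 groups, where chance gives about 1 in 20. The groups of 3 were not examined alone.

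By normalized count, *Hand2* was high in whole cell *miR-92b* sample 2 (1612, next 1238), *Gata2,Gm44246* was low in whole cell *miR-92b* sample 3 (493, next 1134) and the *Gata3* locus was high in nuclear Scr sample 3 (267, next 173). By FPKM, *Ret* (165, next 109) and the *Th* locus (25.3, next 9.91) were high in whole cell *miR-92b* sample 3. *Phox2a* was high in nuclear Scr sample 2 (30.2 FPKM, next 21.2), the *Gata3* locus in nuclear Scr sample 3 (26.5, next 10.7) and *Dbh* in nuclear control sample 3 (4.39, next 2.45). Of the 8 values, 6 belong to the 3 samples that stood apart in the principal component analysis. The part of those samples in the results is given by the values without them.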

How the results depend on the processing

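Of 4742 values of 214 results under other settings, 4485 kept their direction and side of the threshold and 49 moved or crossed it. A further 205 changed sign while past the threshold in neither setting, 10 of them in the averaged comparison of counts (*Ret* 4, the *Th* locus 4, *Phox2a* 1, the *Gata3* locus 1), and 3 changed sign with a call. These last came from the FPKM table, which reversed *Phox2a* in the averaged comparison (-0.93) and *Phox2a* (-1.24) and *Ret* (-1.14) with *miR-92b*, where the implied length differed too. *Gata2* passed in 31 of 31 settings of the averaged comparison (-0.80 to -0.34), *Isl1* in 29 and *Gata2,Gm44246* in 24. Leaving out 1 sample gave 2 to 3 called members there, where 4092 to 5391 of all 15579 tested loci were called. The member lost was *Gata2,Gm44246* (without nuclear control 2, nuclear Scr 1, nuclear *miR-92b* 3, whole cell control 1 or whole cell Scr 2), as with no filter. In the controls, 0 called members became 2 by FPKM (7.32% of all tested loci) and with sample weights, and 1 with the compared groups alone. Leaving out 1 sample gave 0 to 1, the 1 being *Gata2,Gm44246* without whole cell *miR-92b* 3. With *miR-92b*, 1 called member became 2 with a pseudocount of 8, rescaling to the same median or sample weights. It became 4 by FPKM (9.07% of all tested loci) and 0 with the compared groups alone. Leaving out 1 sample gave 0 to 2, with 0 without nuclear *miR-92b* 3 and 2 without whole cell *miR-92b* 1 or 2. The cause was not tested. Within treatments, the share of all loci called under settings other than FPKM is not given here, so these member counts cannot be set against it. No member was called between treatments in 288 alternative fits. By FPKM 4 members were called whichever sample was left out, and by implied length 4 to 5. Rescaling moved the median of all loci from 0.14 to 0.27 and the higher share of calls from 49.2% to 61.6%, with the same 3 members called. By count rather than FPKM, *Isl1* ranked 4, *Phox2a* 6 and *Gata2,Gm44246* 2 among the members. An 8-base seed match was held by 1 member.

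Samples of the same number showed little common deviation (r from -0.04 to 0.11 over 45 pairs). With groups of 3 this cannot show whether samples of 1 number shared a culture, and the main model did not pair them. With the replicate block the same 3 members were called (*Gata2* -0.47, *Isl1* 0.44, *Gata2,Gm44246* 0.47). Without the 3 samples that stood apart, nuclear Scr has 1 sample, assumed to vary like the other groups. Depth limits *Dbh* and *Th* most, and read counts cover counting error only.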
